A study of Saccharomyces cerevisiae with 8 samples.

Results

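The 31 genes described here encode the enzymes of ergosterol synthesis, their helper proteins, 3 transcriptional regulators and the 2 enzymes that esterify sterols. They were chosen by name, from a list of gene symbols matched to the annotation of the array. The list used no cut-off on measured values, but earlier results of these data were known when it was chosen. All 31 were on the array with a probe set of their own, among 5656 genes with a named probe set. They comprise 9 genes of the early mevalonate steps, 8 of the steps between squalene and zymosterol, 5 of the late steps, 4 for scaffold and electron transfer, 3 regulators and 2 sterol acyltransferases.

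RNA was measured in diploid Saccharomyces cerevisiae of the SK1 background, which sporulates fast and synchronously. The groups were mre11delta (strain YMD1599), rad50delta (RKD101), spo11Y135F (RKD1312) and wild type (MJL1720), each at 4 h in sporulation medium and at 0 h. Mre11 and Rad50 belong to the complex that helps make and process meiotic DNA breaks, and Spo11 makes the cut itself. The Y135F change removes its catalytic tyrosine. Cells of every strain had been grown at 30 °C in a presporulation medium with 1% potassium acetate before they were moved to sporulation medium. Each strain and time had 1 Affymetrix array, 8 in all, so differences between strains carry no error. The change over time has an error because the 4 strains serve as its replicates. They differ in genotype, and nothing in the labels says that further cultures were grown, so a p-value here measures only the spread between these 8 arrays. RNA came from whole cultures, in which fewer cells of a kind and less RNA per cell cannot be told apart.

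Ergosterol is the main sterol of yeast membranes and takes the place that cholesterol has in animals. Its synthesis starts from acetyl-CoA, runs through mevalonate and farnesyl pyrophosphate to squalene, and then uses several oxygen- and heme-dependent steps to turn lanosterol into ergosterol. HMG-CoA reductase is the main point of control, the zinc cluster factors Upc2 and Ecm22 raise transcription of the pathway when sterols are low, and surplus sterol is stored as esters in lipid droplets.

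Values are MAS5 signals, a linear measure of brightness, and the number of arrays limits their precision. The median signal of an array ran from 97.3 to 196, with the highest value in mre11delta at 4 h, and 92.1% to 96.4% of genes lay above a floor of 21. All 31 genes lay above that floor on every array, the lowest reading being 30.3. RAD50 (YNL250W) read 3.4 in rad50delta at 4 h and 0.6 in rad50delta at 0 h, and 88.4 to 758 on the other 6 arrays. MRE11 (YMR224C) read 108 at 4 h and 84.0 at 0 h on the arrays labelled mre11delta, within the 45.0 to 192 of the other 6. The probes thus do not separate these arrays, and every direction given for mre11delta rests on the label. The point mutation of spo11Y135F does not remove the gene, so the SPO11 signal cannot check the label. At 4 h SPO11 (YHL022C) read 94.2 in spo11Y135F, against 322 in mre11delta, 469 in rad50delta and 349 in wild type. RNA of 3 arrays (both of mre11delta and wild type at 0 h) was extracted with Trizol, and that of the other 5 with RNeasy columns. At 4 h mre11delta was the only Trizol array, so strain and extraction cannot be told apart there. Wild type was the only strain whose method differed between 4 h and 0 h.

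Between 4 h and 0 h the sterol genes that passed the test went in both directions. The HMG-CoA reductase gene HMG2 and the sterol uptake regulator SUT1 rose, whereas the farnesyl pyrophosphate synthase gene ERG20, the desaturase gene ERG3 and the isomerase gene ERG2 fell. The other 26 did not pass the test, a fit in limma over all 5475 genes whose mean signal reached 21, at an adjusted p of 0.05. Thus 2 of 31 were called higher, against 10.6% of all tested genes, and 3 of 31 lower, against 4.02% of all tested genes. At an unadjusted p of 0.05, 10 of the 31 passed, against 27.1% of all tested genes. The fitted change was below 0 for 23 and above 0 for 8. The median log2 change of the 31 was -0.47, and that of all tested genes was 0.19. With each array centred on its median these medians were -0.87 and -0.22, and with quantile normalization -0.68 and -0.09. The difference, sterol genes minus all genes, ran from -0.56 to -0.77 over all settings tried. Readings at 4 h and at 0 h did not overlap for 3 genes that were higher at 4 h (HMG2, ERG25 and SUT1, against 14.4% of all genes). They did not overlap for 4 genes that were lower (ERG20, ERG27, ERG3 and ERG28, against 5.41% of all genes).

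Among the early mevalonate genes HMG2 rose, ERG20 fell and the other 7 did not pass. HMG2 (YLR450W) encodes the reductase isozyme known to be favoured when oxygen or heme is scarce. HMG2 read 6588 in mre11delta, 4772 in rad50delta, 3053 in spo11Y135F and 4015 in wild type at 4 h, against 524 in mre11delta, 408 in rad50delta, 828 in spo11Y135F and 524.5 in wild type at 0 h. Every 4 h reading was above every 0 h reading. Its log2 change was 2.99 ± 0.50 (SE, n = 4 strains), a 7.94-fold rise (adjusted p = 0.000233), with single strains between 1.87 in spo11Y135F and 3.63 in mre11delta.

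HMG1 (YML075C) encodes the isozyme that carries most of the reductase activity in aerobic growth. HMG1 read 3597 in mre11delta, 814 in rad50delta, 194.5 in spo11Y135F and 554.5 in wild type at 4 h, against 2567 in mre11delta, 1651 in rad50delta, 2882 in spo11Y135F and 3006 in wild type at 0 h. It was lower at 4 h in rad50delta, spo11Y135F and wild type. In mre11delta its log2 change was 0.49 as deposited, 0.18 with quantile normalization and -0.41 with median centring. Its log2 change of -1.70 ± 0.60 did not pass (adjusted p = 0.0629). Without mre11delta the change was -2.43 and passed (adjusted p = 0.006). In rad50delta and spo11Y135F alone (the strains with RNeasy at both times, 1 residual degree of freedom), it was -2.43 as well (adjusted p = 0.00129). Centring each array on its median gave -2.10 (adjusted p = 0.0485), and a stricter filter on dim genes also let it pass (adjusted p = 0.0483). Without spo11Y135F the change was only -0.98 (adjusted p = 0.269), without wild type -1.46 (adjusted p = 0.332), and it was called in 5 of 17 settings.

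ERG20 (YJL167W) encodes farnesyl pyrophosphate synthase, whose product feeds sterols, dolichols, ubiquinone and protein prenylation. ERG20 read 1616 in mre11delta, 375 in rad50delta, 114 in spo11Y135F and 334 in wild type at 4 h, against 3159 in mre11delta, 2225 in rad50delta, 3298 in spo11Y135F and 2821 in wild type at 0 h. The 4 h readings all lay below the 0 h readings, the lowest in spo11Y135F and the highest in mre11delta. In log2 it changed by -2.83 ± 0.59 (SE, n = 4 strains), a 7.13-fold fall (adjusted p = 0.00217). In single strains it ran from -4.77 in spo11Y135F to -0.96 in mre11delta. Without wild type the change was -2.76 and missed the threshold (adjusted p = 0.0771).

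The remaining mevalonate genes did not pass. ERG10 (YPL028W), the acetoacetyl-CoA thiolase that opens the pathway, had a log2 change of -0.14 ± 0.34 with signals of 3219 to 6088. ERG13 (YML126C), HMG-CoA synthase, had a log2 change of 0.12 ± 0.42 and signals of 1834 to 3717. ERG12 (YMR208W), mevalonate kinase, was lower at 4 h in all 4 strains, with a log2 change of -1.27 ± 0.55 (adjusted p = 0.134) and signals of 52.5 to 362. Other scalings of the arrays made it pass, centring on the median (adjusted p = 0.0238) and quantile normalization (adjusted p = 0.0253). It is also the only gene of the 31 with more than 1 probe set, and the 4 sets disagree. The other 3 all read higher in mre11delta at 4 h, at 57.0, 492 and 755 against 23.0, 309 and 623 at 0 h, and 1 of them also in spo11Y135F, at 74.4 at 4 h against 63.3 at 0 h. ERG8 (YMR220W), phosphomevalonate kinase, had a log2 change of -0.47 ± 0.52, with signals of 714 to 2646. For MVD1 (YNR043W), mevalonate pyrophosphate decarboxylase, the log2 change was -0.88 ± 0.50 (signals of 779 to 3826), and of the settings tried only the fit to the RNeasy pairs called it (adjusted p = 0.0407). IDI1 (YPL117C), which interconverts the isoprene units, was lower in all 4 strains, at -0.62 ± 0.54 in log2 and signals of 386 to 1120. As a group the 9 early genes had a median log2 change of -0.62, with 1 called higher and 1 lower.

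None of the 8 genes between squalene and zymosterol passed, and their median log2 change was -0.59. The genes ERG9, ERG1, ERG7 and ERG24 were lower at 4 h in spo11Y135F and wild type. In mre11delta their log2 changes were 0.21 to 0.87 as deposited and -0.68 to -0.02 with median centring. With quantile normalization they were 0.115 for ERG9, 0.169 for ERG1, -0.521 for ERG7 and -0.289 for ERG24. ERG9 (YHR190W) encodes squalene synthase, the first enzyme committed to sterols. ERG9 read 1382 in mre11delta, 426 in rad50delta, 487 in spo11Y135F and 275 in wild type at 4 h, against 835 in mre11delta, 817 in rad50delta, 1923 in spo11Y135F and 747 in wild type at 0 h. The spo11Y135F reading at 0 h and the mre11delta reading at 4 h stood above the rest, and the log2 change was -0.90 ± 0.58 (adjusted p = 0.343). ERG1 (YGR175C), squalene epoxidase, had a log2 change of -0.51 ± 0.58 and signals of 283 to 1418.

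ERG7 (YHR072W) encodes lanosterol synthase, which closes the ring system. ERG7 read 694.5 in mre11delta, 239 in rad50delta, 136.5 in spo11Y135F and 146 in wild type at 4 h, against 597.5 in mre11delta, 109 in rad50delta, 195 in spo11Y135F and 605 in wild type at 0 h. The 3 Trizol arrays read 597.5 to 694.5 and the 5 RNeasy arrays 108.7 to 239.0 over both times. Its log2 change over time was -0.30 ± 0.59 (adjusted p = 0.782).

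ERG11 (YHR007C) encodes lanosterol demethylase, the cytochrome P450 that azole drugs inhibit. ERG11 read 1897 in mre11delta, 2069.9 in rad50delta, 2324.5 in spo11Y135F and 999.6 in wild type at 4 h, against 2843 in mre11delta, 1716 in rad50delta, 1961 in spo11Y135F and 3218 in wild type at 0 h. The groups overlapped, the lowest of the 8 readings was that of wild type at 4 h, and the fitted log2 change was -0.44 ± 0.48 (adjusted p = 0.592). ERG24 (YNL280C) encodes the sterol reductase that acts next. ERG24 read 582.5 in mre11delta, 279 in rad50delta, 134 in spo11Y135F and 206 in wild type at 4 h, against 413 in mre11delta, 349 in rad50delta, 616 in spo11Y135F and 391 in wild type at 0 h. Its log2 change was -0.72 ± 0.58 (adjusted p = 0.46).

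The 3 genes of the demethylation complex differed among themselves. ERG25 (YGR060W), the methyl oxidase, was higher at 4 h in all 4 strains as deposited. ERG25 read 4360.4 in mre11delta, 5675 in rad50delta, 5382 in spo11Y135F and 4339.7 in wild type at 4 h, against 1824 in mre11delta, 4102 in rad50delta, 3732 in spo11Y135F and 2618 in wild type at 0 h. The groups did not overlap, although the log2 change of 0.74 ± 0.37 did not pass (adjusted p = 0.202). With median centring it was 0.34, and rad50delta was then lower at 4 h (-0.43 in log2). ERG26 (YGL001C), the decarboxylase, was lower in all 4 strains, with a log2 change of -1.0 ± 0.54 (adjusted p = 0.248) and signals of 470.5 to 1722. It passed with median centring alone (adjusted p = 0.0299). ERG27 (YLR100W), the keto reductase, was lower in all 4 strains without overlap, at -0.67 ± 0.53 in log2 (adjusted p = 0.444) and signals of 591 to 1588.

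Of the 5 late genes, 2 fell and 3 did not pass, and their median log2 change was -0.65. ERG3 (YLR056W) encodes the C-5 sterol desaturase. ERG3 read 2870.3 in mre11delta, 762 in rad50delta, 447 in spo11Y135F and 354 in wild type at 4 h, against 3468 in mre11delta, 4817 in rad50delta, 4572.5 in spo11Y135F and 4184 in wild type at 0 h. Readings at 4 h all lay below those at 0 h, and mre11delta at 4 h lay close to its own 0 h reading. The log2 change was -2.45 ± 0.54 (SE, n = 4 strains), a 5.46-fold fall (adjusted p = 0.00312), with single strains between -3.54 in wild type and -0.27 in mre11delta. Without wild type the change was -2.09 and missed the threshold (adjusted p = 0.104).

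ERG2 (YMR202W) encodes the sterol isomerase that acts before ERG3. ERG2 read 5022 in mre11delta, 2696 in rad50delta, 1344 in spo11Y135F and 1745 in wild type at 4 h, against 6853 in mre11delta, 4407 in rad50delta, 5395 in spo11Y135F and 7131.5 in wild type at 0 h. The groups overlapped through mre11delta, whose 4 h reading exceeded the 0 h reading of rad50delta. The log2 change was -1.30 ± 0.40 (SE, n = 4 strains, adjusted p = 0.0308), and it was called in 11 of 17 settings. It missed the threshold without wild type (adjusted p = 0.185), without spo11Y135F (0.0897), with quantile normalization (0.0519), with no mean-variance trend (0.114), with the extraction method as a covariate (0.182), and with quantile normalization in the fit without mre11delta (0.055).

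The other late genes did not pass. ERG6 (YML008C), the methyltransferase, had a log2 change of -0.16 ± 0.34 with signals of 3566 to 5426. ERG4 (YGL012W), the last reductase of the pathway, had a log2 change of -0.65 ± 0.45 and signals of 1143 to 3772. ERG5 (YMR015C) encodes a P450 desaturase of the side chain. ERG5 read 1115 in mre11delta, 425 in rad50delta, 299 in spo11Y135F and 457 in wild type at 4 h, against 545 in mre11delta, 490.1 in rad50delta, 559.6 in spo11Y135F and 585 in wild type at 0 h. Only mre11delta at 4 h stood clear of the other arrays, and the log2 change was -0.10 ± 0.57 (adjusted p = 0.928).

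The scaffold and electron transfer genes had a median log2 change of -0.10, and none passed. ERG28 (YER044C), the scaffold that tethers sterol enzymes together, was lower at 4 h in all 4 strains without overlap, at -1.24 ± 0.55 in log2 (adjusted p = 0.139) and signals of 352 to 1725. It passed after centring each array on its median and after quantile normalization, the lowest adjusted p over the settings being 0.0208. ERG29 read 759 in mre11delta, 622 in rad50delta, 213 in spo11Y135F and 525 in wild type at 4 h, against 191 in mre11delta, 264 in rad50delta, 428 in spo11Y135F and 249 in wild type at 0 h. ERG29 (YMR134W) was higher at 4 h in 3 strains and lower in spo11Y135F, with a log2 change of 0.81 ± 0.60 (adjusted p = 0.412). NCP1 (YHR042W), the reductase that supplies electrons to the P450 enzymes, had a log2 change of 0.21 ± 0.49 and signals of 1171 to 2255. For CYB5 (YNL111C), cytochrome b5, the log2 change was -0.41 ± 0.60, with signals of 353 to 1530.

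Of the 3 regulators only SUT1 passed. SUT1 (YGL162W) encodes a zinc cluster factor that promotes sterol uptake. SUT1 read 379 in mre11delta, 2392 in rad50delta, 2949 in spo11Y135F and 1821 in wild type at 4 h, against 33.4 in mre11delta, 63.6 in rad50delta, 148 in spo11Y135F and 45.8 in wild type at 0 h. Every 4 h reading exceeded every 0 h reading, with mre11delta the lowest at 4 h. The log2 change was 4.43 ± 0.57 (SE, n = 4 strains), a 21.5-fold rise (adjusted p = 1.10e-05), and it was called in 17 of 17 settings, as was that of HMG2.

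UPC2 (YDR213W) encodes the activator that senses ergosterol. UPC2 read 98.7 in mre11delta, 105 in rad50delta, 117 in spo11Y135F and 71.4 in wild type at 4 h, against 30.3 in mre11delta, 46.0 in rad50delta, 114 in spo11Y135F and 31.2 in wild type at 0 h. As deposited it was higher in mre11delta, rad50delta and wild type by 1.04 to 1.5 in log2, and nearly equal in spo11Y135F, where the 0 h reading was already high. With median centring the changes in those 3 strains were 0.61, 0.18 and 1.31, and with quantile normalization 0.65, 0.43 and 1.24. The fitted log2 change as deposited was 0.91 ± 0.50 (adjusted p = 0.255). ECM22 (YLR228C) encodes its paralogue. ECM22 read 682 in mre11delta, 382 in rad50delta, 201 in spo11Y135F and 204 in wild type at 4 h, against 261 in mre11delta, 381 in rad50delta, 503 in spo11Y135F and 264 in wild type at 0 h. Its strains went in different directions, from -1.30 in spo11Y135F to 1.36 in mre11delta, and the fitted change was -0.07 ± 0.58 (adjusted p = 0.951).

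The sterol acyltransferase genes ARE1 and ARE2, which make sterol esters, did not pass, and their fitted changes had opposite signs. Are2 is the main isozyme in aerobic growth, and Are1 is favoured when heme is scarce. ARE2 read 1255 in mre11delta, 623 in rad50delta, 339.9 in spo11Y135F and 735 in wild type at 4 h, against 71.8 in mre11delta, 283 in rad50delta, 658 in spo11Y135F and 92.0 in wild type at 0 h. ARE2 (YNR019W) was higher at 4 h in mre11delta, rad50delta and wild type and lower in spo11Y135F. The fitted log2 change of ARE2 was 1.77 ± 0.68 (adjusted p = 0.0879), or 2.67 without spo11Y135F, which passed (adjusted p = 0.00127), and 0.09 within the RNeasy pairs.

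ARE1 read 337 in mre11delta, 150.1 in rad50delta, 67.8 in spo11Y135F and 83.6 in wild type at 4 h, against 306 in mre11delta, 440.2 in rad50delta, 587 in spo11Y135F and 305 in wild type at 0 h. ARE1 (YCR048W) was lower at 4 h in rad50delta, spo11Y135F and wild type. In mre11delta its log2 change was 0.14 as deposited and -0.75 with median centring. Its fitted change was -1.54 ± 0.58 (adjusted p = 0.0818). Leaving out mre11delta made it pass, at -2.09 (adjusted p = 0.025). So did centring each array (0.0327), quantile normalization (0.0375) and use of the RNeasy pairs only (0.00482, all adjusted p). Without spo11Y135F the change was -1.05 (adjusted p = 0.311), without wild type the adjusted p was 0.249 and without rad50delta 0.23, and it was called in 6 of 17 settings.

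**Figure D1:**
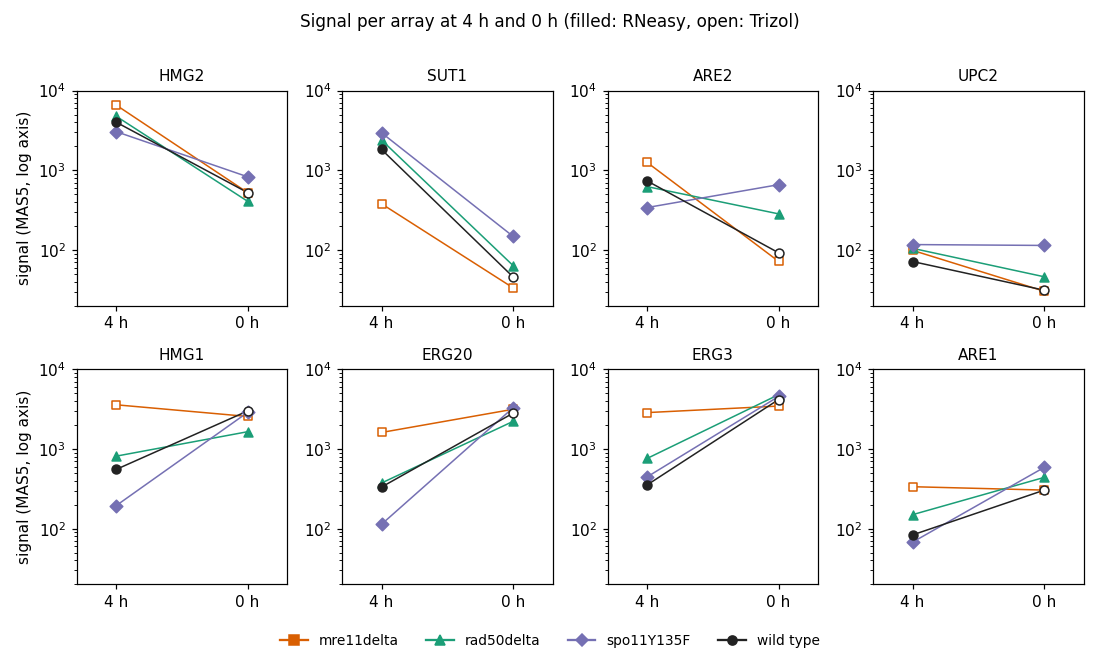
MAS5 signal on a log axis for 8 sterol genes at 4 h (left in each panel) and 0 h (right), with 1 line per strain, filled points for RNeasy arrays and open points for Trizol arrays. HMG2 and SUT1 are higher at 4 h in every strain, ERG20 and ERG3 lower in every strain, and 1 strain slopes the other way as deposited for HMG1 and ARE1 (mre11delta) and for ARE2 (spo11Y135F).

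Within the 3 pairs of paralogues, the change of one gene can be set against that of its partner on the same array, which leaves the scaling of the arrays out. These pairs were set together after their values were seen, so the differences are a description with no test. The log2 change of HMG2 exceeded that of HMG1 by 4.69 ± 1.14 (SD, n = 4 strains), with 3.15 in mre11delta, 4.54 in rad50delta, 5.72 in spo11Y135F and 5.34 in wild type. For ARE2 over ARE1 the difference was 3.31 ± 1.19, with 3.86 in mre11delta, 2.63 in rad50delta, 2.05 in spo11Y135F and 4.69 in wild type. The pair UPC2 over ECM22 gave 0.98 ± 0.58, with 0.14 in mre11delta, 1.07 in rad50delta, 1.33 in spo11Y135F and 1.40 in wild type. All 3 differences were positive in 4 of 4 strains.

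**Figure D2:**
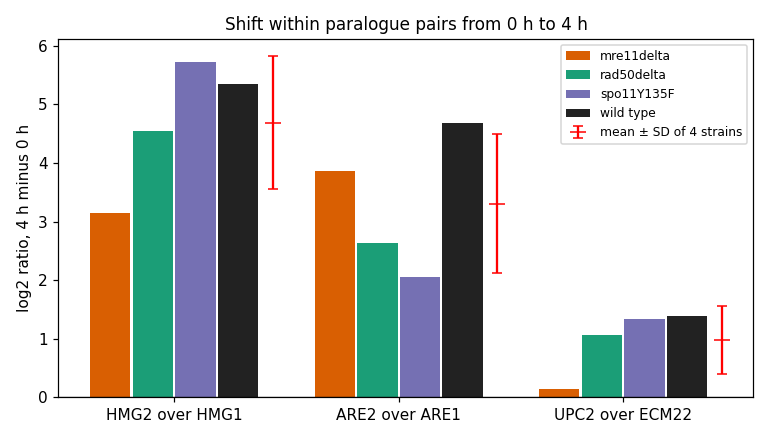
Difference between the log2 changes (4 h minus 0 h) of the genes in each paralogue pair, with 1 bar per strain and the mean ± SD of the 4 strains in red. All 12 bars are above 0, from 0.14 for UPC2 over ECM22 in mre11delta to 5.72 for HMG2 over HMG1 in spo11Y135F.

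The strains differed in how much the sterol genes changed. Since each has 1 array per time, counts of genes past 2-fold are given with no test. In mre11delta 8 of 31 were at least 2-fold higher at 4 h, against 40.6% of all tested genes, and 0 were lower, against 10%. In rad50delta 6 were higher, against 34.4% of all genes, and 5 lower, against 5.94%. In spo11Y135F 2 were higher, against 22.7% of all genes, and 15 lower, against 26.2%. In wild type 5 were higher, against 15.5% of all genes, and 17 lower, against 31.1%. The median log2 change of the 31 was 0.23 in mre11delta, -0.13 in rad50delta, -0.99 in spo11Y135F and -1.11 in wild type. That of all tested genes was 0.74, 0.61, -0.12 and -0.37 in the same order, so as deposited the median of the sterol genes lay below that of the whole array in each strain. With quantile normalization this did not hold in mre11delta, where the medians were 0.01 for the sterol genes and -0.01 for all genes.

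Part of this ordering depended on the scaling. With each array centred on its median, 4 sterol genes were higher and 9 lower in mre11delta (18% and 24.7% of all genes), and 2 higher and 16 lower in rad50delta (13.5% and 23.5%). In spo11Y135F 2 were higher and 17 lower (21.6% and 28.1%), and in wild type 6 higher and 13 lower (20.7% and 24.7%). Under either scaling the share of sterol genes that were lower exceeded that of all genes in rad50delta, spo11Y135F and wild type. In mre11delta it was 0 of 31 as deposited and 29.0% after centring, against 24.7% of all genes. With quantile normalization it was 9.68% in mre11delta, below the 20.8% of all genes, and 45.2% in rad50delta, above their 19.3%.

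**Figure D3:**
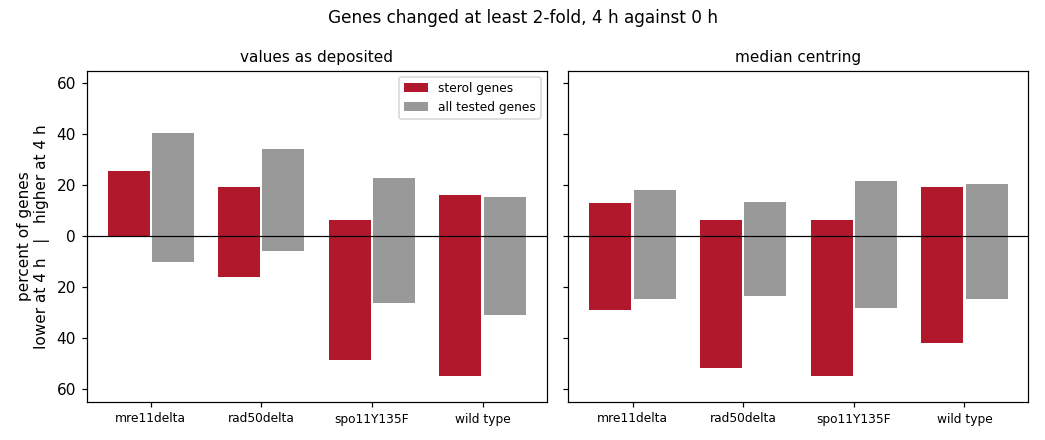
Percent of the 31 sterol genes (red) and of all tested genes (grey) that were at least 2-fold higher (above 0) or lower (below 0) at 4 h than at 0 h in each strain, for values as deposited (left) and after median centring (right). The share of sterol genes that were lower is 48.4% in spo11Y135F and 54.8% in wild type as deposited, above the 26.2% and 31.1% of all genes.

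At 4 h most of the sterol genes read highest in mre11delta. Of the 31, 25 (80.6%) had their highest 4 h reading there, against 57.0% of all tested genes. The number was 16 (51.6%, against 27.4%) with median centring and 17 (54.8%, against 30.3%) with quantile normalization. The lowest 4 h reading was that of spo11Y135F for 18 genes (58.1%, against 38.4% of all genes). The number was 20 (64.5%, against 40.0%) with median centring and 21 (67.7%, against 41.4%) with quantile normalization. These ranks share arrays and are a description.

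Single strains were then compared at each time, and a gene is said to stand apart when 1 strain read at least 2-fold above or below all 3 others. In mre11delta at 4 h, 8 of 31 stood above the others, against 12.2% of all tested genes. They span the pathway, with HMG1 4.39-fold above the next strain, ERG20 4.25-fold, ERG3 3.74-fold, ERG7 2.85-fold, ERG9 2.81-fold, ERG5 2.42-fold, ARE1 2.19-fold and ERG24 2.06-fold. With median centring 4 remained, HMG1, ERG20, ERG3 and ERG7 (3.14, 2.33, 3.33 and 2.24-fold), against 2.70% of all genes. With quantile normalization ERG9 stood apart as well, making 5, against 3.29%. SUT1 was the only sterol gene below the others in mre11delta (3.23% of the 31), by 4.74-fold, against 1.39% of all genes. With median centring it was 6.98-fold below, against 3.42% of all genes, and with quantile normalization 8.37-fold, against 3.0%. With those scalings the count is thus near the share of all genes.

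In spo11Y135F at 4 h, 3 genes (9.68%) stood below the other strains, HMG1 by 2.79-fold, ERG20 by 2.82-fold and ERG29 by 2.42-fold, against 9.41% of all genes. The same 3 genes stood apart with median centring, against 7.4% of all genes, and with quantile normalization, against 8.38%. This count is thus near the share of all genes. By single readings, HMG1 and ERG20 were highest in mre11delta and lowest in spo11Y135F at 4 h, with gaps on either side. No sterol gene stood below the other strains in wild type at 4 h, against 13.9% of all genes. None did with the other scalings either, where the share of all genes was only 1.53% (median centring) and 2.01% (quantile normalization). At 0 h ERG9, UPC2, SUT1 and ARE2 stood above the others in spo11Y135F, by 2.19 to 2.29-fold, against 3.27% of all genes, and none did with median centring or with quantile normalization.

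**Figure D4:**
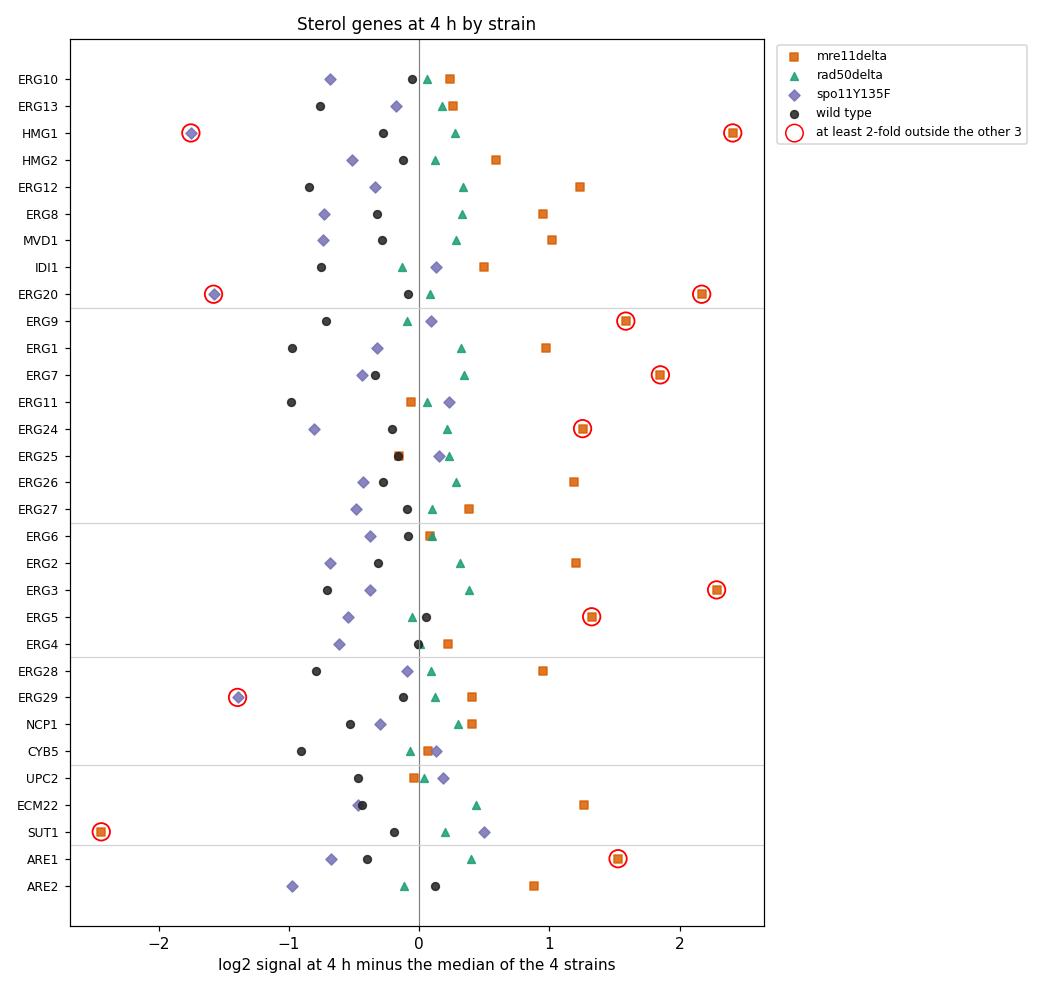
Log2 signal at 4 h in each strain minus the median of the 4 strains, for the 31 sterol genes in pathway order from top to bottom, with red circles around readings at least 2-fold outside the other 3 strains. Circles mark mre11delta on the right for 8 genes, mre11delta on the left for SUT1 and spo11Y135F on the left for HMG1, ERG20 and ERG29.

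Stage markers and the extraction method also differed between the arrays. The summed signal of 8 middle meiotic genes, which mark the passage out of prophase, was 1480 in mre11delta, 18476 in rad50delta, 26905 in spo11Y135F and 3287 in wild type at 4 h, and 325 to 397 at 0 h. For 8 early meiotic genes the sum was 22082 in mre11delta, 24524 in rad50delta, 13626 in spo11Y135F and 18601 in wild type at 4 h. At 0 h it was 630.5 in mre11delta, 5248 in rad50delta, 6137 in spo11Y135F and 878 in wild type. IME1 alone gave 514, 4896, 5576 and 699 of these 0 h sums, in the same order. All 8 early and 7 of 8 middle genes rose over time. Of 5 mitotic G2/M genes tested 1 fell. Over the 6 on the array the summed signal was 162 to 4946 at 4 h and 400.5 to 619 at 0 h, and CDC20 alone, which also acts in meiosis, gave 4563 of the highest sum, in spo11Y135F. Of 9 haploid mating-type genes 3 rose, with sums of 1456 to 6889 at 4 h and 798 to 1471 at 0 h. No gene of these lists read 0 on any array. The part of stage or extraction in the strain differences was not tested.

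Between the 5 RNeasy and 3 Trizol arrays, ERG7 was the only sterol gene at least 2-fold lower with no overlap, by 2.46-fold, against 0.292% of all genes, and none was higher, against 0.0731%. At 0 h alone ARE2 was higher on the RNeasy arrays, by 2.93-fold, against 7.4% of all genes. ERG7 and CYB5 were lower there, by 2.99 and 2.84-fold, against 10.1%. At 0 h the RNeasy arrays are rad50delta and spo11Y135F and the Trizol arrays mre11delta and wild type, so strain and extraction cannot be told apart. Within the RNeasy pairs, where extraction did not differ, ERG20 had a log2 change of -3.66 (adjusted p = 7.54e-07) and ERG3 of -2.99 (adjusted p = 1.77e-06). That fit has 1 residual degree of freedom. It leaves out wild type and mre11delta, and mre11delta is the strain where both genes fell least.

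The wider sterol network was read from lists of related genes, of which 83 were tested in all, 11 higher at 4 h (13.3%, against 10.6% of all genes) and 5 lower (6.02%, against 4.02%). Of 3 steryl ester hydrolases, which release sterol from its stored form, 1 rose. YEH1 (YLL012W), on lipid droplets, read 754 in mre11delta, 4970.4 in rad50delta, 5537 in spo11Y135F and 517 in wild type at 4 h, and 99.8 to 190.1 at 0 h. Its log2 change was 3.61 ± 0.65 (SE, n = 4 strains, adjusted p = 0.000538), and the rise was larger in rad50delta and spo11Y135F than in mre11delta and wild type, by values alone. Of 22 genes of sterol transport and binding, 3 rose and 1 fell. HES1 (YOR237W), an oxysterol-binding protein homologue, rose by 2.93 ± 0.50 in log2 (adjusted p = 0.000268). It read 57.4 to 261 at 4 h and 0.8 to 23.8 at 0 h, so the size depends on the pseudocount. The sterol importers AUS1 (YOR011W) and PDR11 (YIL013C) each rose by 2.20 in log2 (adjusted p = 0.00456 and 0.00761). Neither passed without rad50delta, and PDR11 did not pass without wild type. The secreted sterol-binding protein PRY2 (YKR013W) fell.

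The regulation and cofactor lists held 1 call. None of 8 regulators of sterol and hypoxic genes passed, the largest log2 changes being 1.05 ± 0.61 for CYC8 (YBR112C) and 1.03 ± 0.59 for MGA2 (YIR033W). None of 10 genes of reductase and sterol enzyme turnover passed, with HRD1 (YOL013C), the ubiquitin ligase that degrades Hmg2 protein, at 1.13 ± 0.59 (adjusted p = 0.229) and SPF1 (YEL031W) at -1.0 ± 0.53. Of 9 hypoxic and sterol-depletion genes 1 rose, TIR4 (YOR009W), a cell wall mannoprotein, by 1.73 ± 0.56 (adjusted p = 0.0424), called in 7 of 15 settings. None of 7 heme synthesis and P450 support genes passed, with HEM2 (YGL040C) at -1.53 ± 0.62 (adjusted p = 0.106) and HEM1 (YDR232W) at -0.89 ± 0.60.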

How the data were processed

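Each deposited value is a linear intensity from MAS5, per the submitters' processing notes. How arrays were scaled to each other, and the MAS5 version, were not given in the sources used here. Per the labels' protocols, biotin-labelled cRNA was made from 3 microg of polyadenylated RNA and hybridised to Affymetrix YG-S98 arrays. Of 9335 probe sets, 6504 name 1 gene, 328 several and 2503 none in the platform annotation. A single probe set was kept per gene, a plain gene-specific type first and then the highest mean, which gave 5656 genes. To the deposited intensity 7 was added (the 10th percentile over all arrays) before taking log2. Genes with a mean under 21 were left out of the tests, which kept 5475.

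The change from 0 h to 4 h was fitted over all genes with limma 3.58.1 (R 4.3.3). The model had strain as a block, a mean-variance trend in eBayes, two-sided tests and Benjamini-Hochberg adjustment at 0.05. The SE is limma's moderated standard error. Strains were compared without a test, by 2-fold rules. Planned counts of promoter motifs were not run, since no sequence was used here.

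The sterol genes, the lists of related genes and markers, and the naming rule were chosen with earlier results of these data known. The rule gives the signals of all 8 arrays for genes that passed the test, for those 2-fold outside the other strains at 4 h, and for HMG1, HMG2, ERG11, UPC2, ECM22, ARE1 and ARE2. ERG25 was added because its groups did not overlap. From each related list it takes up to 4 genes with the largest change that passed, or the 2 with the largest change where none did. Alternatives were other pseudocounts, filters, scalings between arrays, fits without block or trend, other probe sets, extraction method and leaving out each strain. The fits without mre11delta under other scalings, the scaling of the within-strain counts and changes and the paralogue pairs were chosen after seeing the data.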

Additional observations from a re-analysis of the deposited data

Results flagged for a closer look

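Among the 62 sets of 4 readings of a sterol gene at 1 time, 2 held a reading far from the others, and chance alone gives about 1 in 20. For ERG9 (squalene synthase) at 0 h, the spo11Y135F reading stood above the rest, with a gap of 0.883 of the range. For ERG26 (sterol decarboxylase) at 0 h, the rad50delta reading stood below the rest, with a gap of 0.856 of the range. The gaps were taken on the log2 scale, where both exceed Dixon's critical value for 4 samples.

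For 5 genes, 1 strain changed in the opposite direction to the other 3, a difference that was not tested. As deposited, those higher at 4 h in mre11delta alone were ERG9, with a log2 change of 0.72, ERG1 (squalene epoxidase), with 0.87, and ERG5 (side chain desaturase), with 1.02. With median centring these changes were -0.17, -0.02 and 0.13, so ERG9 and ERG1 were then lower at 4 h in all 4 strains. With quantile normalization they were 0.115, 0.169 and 0.34, and ERG9 and ERG1 stayed higher in mre11delta alone. ERG5 was then higher in wild type too, at 0.071. The median log2 change of all genes in mre11delta was 0.74 as deposited. Those lower at 4 h in spo11Y135F alone were ERG29, with a log2 change of -0.98, and ARE2 (sterol acyltransferase), with -0.94. Both stayed lower in spo11Y135F alone with median centring, at -1.08 and -1.03.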

How the results depend on the processing

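Of 527 values for single sterol genes under the alternatives, 478 kept their sign and their side of the threshold, 10 lost the call and 21 gained it. In the other 18, over 8 genes, the sign of the fitted change turned, in 0 cases for a gene called in either fit. The number of sterol genes that fell, 3 with the values as deposited, was 8 with median centring, 5 with quantile normalization and 7 with median centring without mre11delta. It was 6 within the RNeasy pairs, a fit with 1 residual degree of freedom. It was 0 with extraction method as a covariate, which absorbs the wild-type change. Leaving out 1 strain gave 0 (without wild type) to 5 (without mre11delta) that fell and 2 to 3 that rose. Over all genes, 582 higher and 220 lower became 409 and 560 with median centring, 425 and 393 under quantile normalization, 328 and 36 when wild type was left out, and 859 and 355 within the RNeasy pairs. The cause of these shifts was not tested, and the smaller fits also hold fewer samples.

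For strain counts, the 8 genes above the others in mre11delta at 4 h became 4 under median centring and 5 under quantile normalization. The 4 above the others in spo11Y135F at 0 h became 0 with either scaling and 2 with the larger pseudocount. Genes at least 2-fold higher at 4 h became 4 in mre11delta and 2 in rad50delta with either scaling, and 3 in wild type with the larger pseudocount. Those lower became 9 and 3 in mre11delta and 16 and 14 in rad50delta, under median centring and quantile normalization in that order (24.7% and 20.8% of all genes in mre11delta, 23.5% and 19.3% in rad50delta). The cause was not tested. With 1 array per strain and time, and an unstated scaling of arrays whose medians differ 2.02-fold, the direction of small changes is limited by the scaling. The setting without a strain block gave 2 higher and 3 lower sterol genes.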

Other observations

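Genes that draw on the same precursors as the sterol pathway were read from 3 further lists. Of 11 genes of other isoprenoid branches, 3 rose and 3 fell at 4 h. SRT1 (YMR101C), a cis-prenyltransferase that makes long polyprenols, read 2057 to 3374 at 4 h and 37.1 to 66.0 at 0 h, a log2 change of 5.54 ± 0.56 (SE, n = 4 strains, adjusted p = 5.38e-07). NUS1 (YDL193W), a partner subunit of cis-prenyltransferase, rose by 2.49 ± 0.57 in log2 (adjusted p = 0.00415). COQ2 (YNR041C) and COQ1 (YBR003W), the prenyl transfer and prenyl chain enzymes of ubiquinone synthesis, had log2 changes of -2.97 ± 0.55 (adjusted p = 0.000726) and -2.45 ± 0.59 (adjusted p = 0.00683). Of these 4, SRT1 and COQ2 were called in 15 of 15 settings, while NUS1 and COQ1 did not pass without wild type.

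Of 8 tested genes of storage lipid synthesis and breakdown, 3 rose and none fell. The triacylglycerol lipase genes TGL4 (YKR089C) and TGL3 (YMR313C) had log2 changes of 2.61 ± 0.60 (adjusted p = 0.00452) and 2.43 ± 0.62 (adjusted p = 0.0100). The seipin gene SEI1 (YLR404W) changed by 1.97 ± 0.56 (adjusted p = 0.0196). TGL3 did not pass without rad50delta or with median centring, and SEI1 was called in 10 of 15 settings. Of 5 genes of acetyl-CoA supply, 1 fell, ACS2 (YLR153C), an acetyl-CoA synthetase, with a log2 change of -2.35 ± 0.57 (adjusted p = 0.00716). Its signals were 2257 in mre11delta, 473 in rad50delta, 196 in spo11Y135F and 367 in wild type at 4 h, and 1572 to 3616 at 0 h. Without wild type it did not pass.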
